A study of Mus musculus with 10 samples.

Results

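Desmosomes and adherens junctions are described here through 10 genes: desmoplakin (Dsp), plakophilin 2 (Pkp2), desmoglein 2 (Dsg2), desmocollin 2 (Dsc2), plakoglobin (Jup), N-cadherin (Cdh2), alphaE-catenin (Ctnna1), alphaT-catenin (Ctnna3), beta-catenin (Ctnnb1) and the zonula occludens protein ZO-1 (Tjp1). They were chosen as the cell adhesion genes of the cardiac intercalated disc. Each symbol matched 1 of the 45882 gene IDs of the files, and all 10 passed the filter on low levels in the mean of the 10 libraries. The libraries were made from left ventricular myocytes, isolated from C57BL/6 adults: 4 from mice labelled CTCF knockout, 3 from mice after transverse aortic constriction (TAC), and 3 from mice labelled control. TAC narrows the aorta by surgery and loads the left ventricle with pressure. CTCF is a DNA-binding protein that helps to fold chromatin into loops. The labels give neither the promoter or Cre line that removes Ctcf, nor the genotype of the TAC mice, nor whether controls had sham surgery, a Cre or a floxed allele, nor ages beyond adult. Each library had a mouse of its own.

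Cardiac myocytes are joined end to end at the intercalated disc. There, cadherins of neighbouring cells bind each other, and their tails are held by catenins that link them to actin (adherens junctions) or by plakoglobin, plakophilin and desmoplakin that link them to desmin filaments (desmosomes). In mammalian hearts the components of these junctions mix in a zone called the area composita, and mutations of human DSP, PKP2, DSG2, DSC2 and JUP are known in arrhythmogenic cardiomyopathy. Beta-catenin and plakoglobin also take part in Wnt signalling.

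Levels are given in FPKM, fragments per kilobase of transcript scaled to library size, which the authors estimated for each transcript. These were summed by gene and rescaled between libraries. No read counts are listed, and sequencing depth is therefore unknown. Only relative depth can be read from the files, as coverage per FPKM, whose library medians ran from 3.90 to 6.09. Ctcf, the targeted gene, lay between 2.60 and 4.42 FPKM in the knockout libraries, between 5.22 and 7.32 FPKM in the TAC libraries and between 6.80 and 8.81 FPKM in the control libraries. Its log2 fold change was -1.02 in knockout against control (limma, adjusted p = 0.00136). The 14 myocyte markers summed to between 37200 and 48900 FPKM in knockout, between 39700 and 49700 FPKM in TAC and between 44900 and 50400 FPKM in control libraries, and none was listed at 0 in any group. By Xist, the males were knockout replicate 4, TAC replicates 1 and 3 and control replicate 2, and the other 6 mice were female, so that groups differed in sex.

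Desmoplakin had the highest level of the 10 genes in every group, followed by alphaE-catenin. The mean of Dsp was 196 ± 25.5 FPKM in knockout (SD, n = 4), 238 ± 10.5 FPKM in TAC (SD, n = 3) and 180 ± 8.79 FPKM in control libraries (SD, n = 3). After Ctnna1, the order by mean in knockout libraries was Ctnnb1, Cdh2, Jup, Pkp2, Ctnna3, Dsg2, Tjp1 and Dsc2. In TAC libraries Cdh2 came before Ctnnb1, Pkp2 before Jup, and Dsc2 before Tjp1. The control order was that of the knockout except that Dsc2 came before Tjp1. Of the neighbours in the knockout order, the ranges of Ctnna1 and Ctnnb1, of Jup and Pkp2, of Ctnna3 and Dsg2, and of Dsg2 and Tjp1 overlapped. Overlap in TAC concerned Cdh2 with Ctnnb1, Pkp2 with Jup, and Dsc2 with Tjp1, and in control libraries Ctnna3 with Dsg2 and Dsc2 with Tjp1. Both desmosomal cadherins thus lay near the low end of the order in every group.

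**Figure D1:**
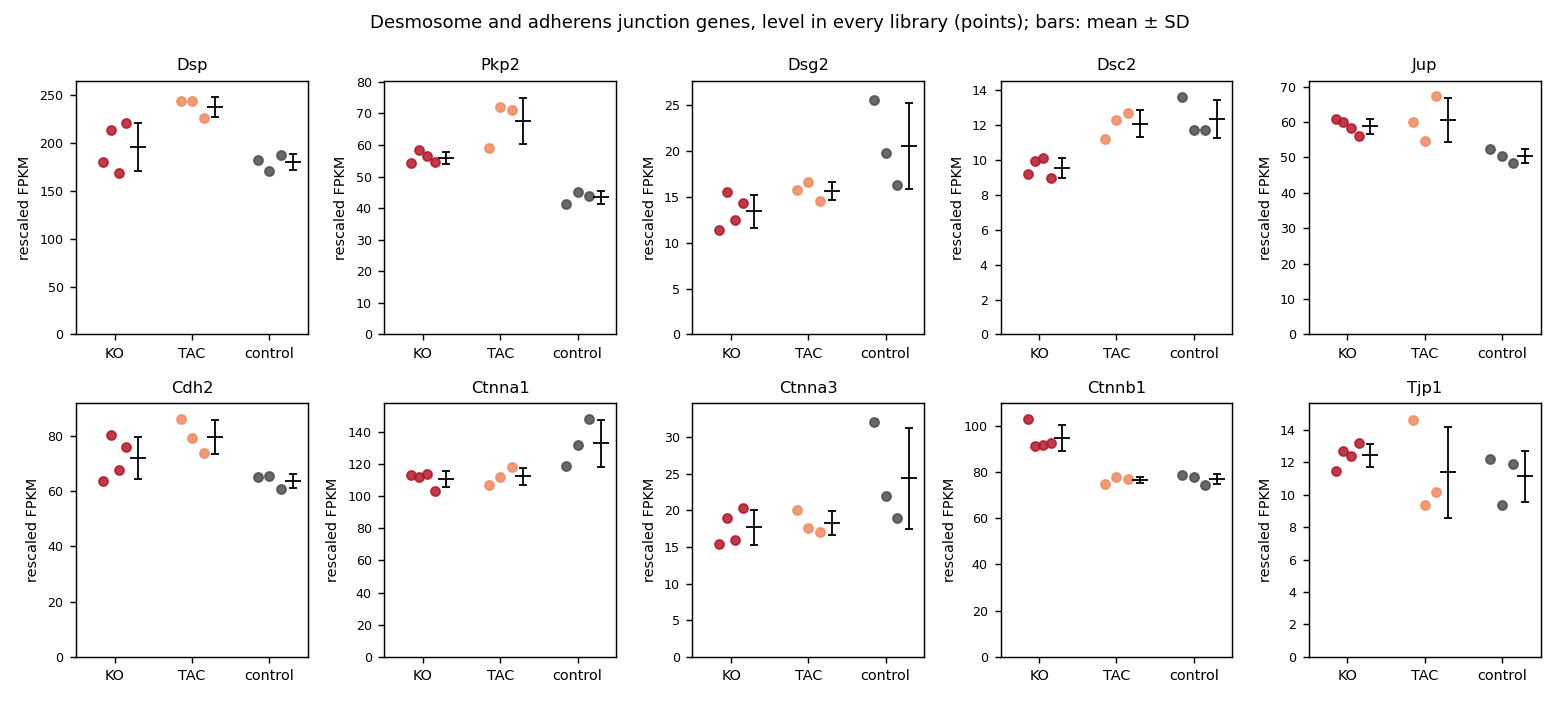
Level in rescaled FPKM (vertical axis, from 0) of each of the 10 genes in 4 CTCF knockout (KO), 3 TAC and 3 control libraries; each point is a library, and the bar beside it is the mean ± SD. Pkp2 is higher in every knockout and TAC library than in every control library, Dsg2 and Dsc2 are lower in every knockout library than in every control library, and Ctnnb1 is higher in every knockout library than in every TAC and control library.

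The comparison of CTCF knockout with control asks which of these genes differ when myocytes carry less Ctcf RNA. Plakophilin 2 and beta-catenin rose in knockout myocytes and the desmosomal cadherins Dsg2 and Dsc2 fell. The mean levels in knockout were 1.23 to 1.29 times the control mean for the first pair and 0.652 to 0.773 times for the second. Of the 10 genes, 4 were called at an adjusted p under 0.05 (limma on log2(FPKM + 1), Benjamini-Hochberg over 11358 genes), against 20.8% of all tested genes. The 2 higher compare with 10.6% and the 2 lower with 10.2% of all. The count of 4 depended on the processing. It was 2 with scaling factors from all genes above 0, which were fitted first and with which 2219 of all tested genes were called. It was also 2 with the replicate numbers as a block, and 1 without control replicate 1. The groups did not overlap for 6 of the 10, against 30.8% of all tested genes. The median log2 fold change was 0.13 over the 10 genes and -0.01 over all tested genes. On this scale, fold changes at low levels are understated.

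The desmosomal cadherins form the adhesive core of the desmosome. Dsg2 (ENSMUSG00000044393, chromosome 18, 20558074 to 20604521, plus strand, mm10) had 11.4, 15.5, 12.5 and 14.3 FPKM in knockout libraries, 15.8, 16.6 and 14.6 FPKM in TAC libraries, and 25.6, 19.8 and 16.3 FPKM in control libraries. Gm16090, an antisense transcript at a mean of 1.41 FPKM, overlaps Dsg2. Every knockout library lay below every control library, while the lowest control lay within the TAC range, and the control libraries spread most widely. Its log2 fold change in knockout against control was -0.57 (SE 0.146, limma, adjusted p = 0.018). The call was lost without control replicate 1 (-0.41, adjusted p = 0.0642) and with no filter on the mean level (-0.57, adjusted p = 0.0513). Dsc2 (ENSMUSG00000024331, chromosome 18, 20030633 to 20059554, minus strand) had 9.19, 9.97, 10.1 and 8.94 FPKM in knockout libraries, 11.2, 12.3 and 12.7 FPKM in TAC libraries, and 13.6, 11.7 and 11.7 FPKM in control libraries. All 4 knockout libraries lay below all TAC and control libraries, which overlapped each other. The log2 fold change in knockout against control was -0.34 (SE 0.0942, limma, adjusted p = 0.0262), but with its most abundant transcript Dsc2-203 in place of the gene sum it was 0.63 (adjusted p = 0.0406). The Dsc2 call was lost without control replicate 1 (-0.27, adjusted p = 0.0928), knockout replicate 1 (-0.32, adjusted p = 0.0635) or knockout replicate 4 (-0.31, adjusted p = 0.0636), and with FPKM as deposited (-0.22, adjusted p = 0.182).

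The armadillo proteins bind the cadherin tails. Pkp2 (ENSMUSG00000041957, chromosome 16, 16213318 to 16272712, plus strand), which couples desmoplakin to the cadherins, had 54.3, 58.4, 56.5 and 54.5 FPKM in knockout libraries, 59.2, 72.2 and 71.2 FPKM in TAC libraries, and 41.2, 45.2 and 43.8 FPKM in control libraries. The 3 groups did not overlap. Its log2 fold change was 0.36 in knockout against control (SE 0.0957, limma, adjusted p = 0.0213) and 0.62 in TAC against control (SE 0.102, limma, adjusted p = 0.00232). The knockout call was lost without control replicate 1 or 3 or knockout replicate 2 or 3, with log2 fold changes of 0.32, 0.37, 0.34 and 0.35 and adjusted p of 0.0651, 0.0527, 0.0611 and 0.0501, and with scaling factors from all genes above 0 (0.34, adjusted p = 0.0554). Jup (ENSMUSG00000001552, chromosome 11, 100368958 to 100397763, minus strand), the only catenin that desmosomes and adherens junctions share, had 60.8, 59.9, 58.4 and 55.9 FPKM in knockout libraries, 59.9, 54.7 and 67.2 FPKM in TAC libraries, and 52.3, 50.5 and 48.4 FPKM in control libraries. Every knockout and every TAC library lay above every control library, but neither difference was called: the log2 fold changes were 0.22 (95% interval 0.01 to 0.42, limma, adjusted p = 0.127) and 0.26 (0.04 to 0.48, adjusted p = 0.108).

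Dsp (ENSMUSG00000054889, chromosome 13, 38151328 to 38198577, plus strand), the plakin that anchors desmin filaments, had 180, 214, 169 and 221 FPKM in knockout libraries, 244, 244 and 226 FPKM in TAC libraries, and 182, 171 and 188 FPKM in control libraries. The TAC libraries lay above all others, and the knockout libraries fell on both sides of the controls. The log2 fold change was 0.40 in TAC against control (SE 0.122, limma, adjusted p = 0.0479) and 0.11 in knockout against control (95% interval -0.14 to 0.36, limma, adjusted p = 0.535). The TAC call stood at the threshold and was lost in 18 of 25 alternatives, among them the omission of any 1 control library, of any 1 TAC library or of knockout replicate 1 or 2, with log2 fold changes from 0.36 to 0.43 and adjusted p from 0.0596 to 0.13. Gm10129 overlaps Dsp on the other strand at a mean of 35.4 FPKM. The kit keeps strand, but the sources used here do not give the strand setting of the quantification, so how reads divide between both genes is uncertain.

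N-cadherin is the classical cadherin of the adult myocyte. Cdh2 (ENSMUSG00000024304, chromosome 18, 16588877 to 16809246, minus strand) had 63.6, 80.5, 67.8 and 76.0 FPKM in knockout libraries, 86.2, 79.2 and 74.0 FPKM in TAC libraries, and 65.0, 65.6 and 60.9 FPKM in control libraries. The TAC libraries lay above the controls and the knockout libraries overlapped both groups. Neither log2 fold change was called, at 0.17 in knockout (95% interval -0.06 to 0.39, limma, adjusted p = 0.303) and 0.32 in TAC (0.07 to 0.56, adjusted p = 0.0807), each against control. With FPKM as deposited the TAC difference was 0.38 (adjusted p = 0.0494).

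Beta-catenin links N-cadherin to alpha-catenin and is the transcriptional co-activator of canonical Wnt signalling. Ctnnb1 (ENSMUSG00000006932, chromosome 9, 120929216 to 120960507, plus strand) had 103, 91.2, 91.8 and 92.6 FPKM in knockout libraries, 75.0, 77.9 and 76.8 FPKM in TAC libraries, and 78.5, 78.0 and 74.3 FPKM in control libraries. The knockout libraries lay above all others, and TAC and control libraries shared a narrow range. The log2 fold change was 0.30 in knockout against control (SE 0.0861, limma, adjusted p = 0.0314) and -0.01 in TAC against control (95% interval -0.21 to 0.19, adjusted p = 0.972). The knockout call was lost in 10 of 25 alternatives. It was lost without any 1 control library or without knockout replicate 1, 2 or 3, where log2 fold changes ran from 0.25 to 0.31 and adjusted p from 0.053 to 0.0983, and with scaling factors from all genes above 0 (0.28, adjusted p = 0.0758). Ulk4 overlaps Ctnnb1 on the other strand at 2.84 FPKM.

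The alpha-catenins tie the cadherin complex to actin. Ctnna1 (ENSMUSG00000037815, chromosome 18, 35118888 to 35254773, plus strand), the widely expressed form, had 113, 112, 114 and 103 FPKM in knockout libraries, 107, 112 and 118 FPKM in TAC libraries, and 119, 132 and 148 FPKM in control libraries. All knockout and TAC libraries lay below all controls, with log2 fold changes of -0.26 (95% interval -0.48 to -0.04, limma, adjusted p = 0.0912) and -0.24 (-0.47 to -0.00, adjusted p = 0.162), which were not called. Without control replicate 1 the knockout difference was -0.33 (adjusted p = 0.0488), and with quantile normalization the TAC difference was -0.25 (adjusted p = 0.0419). Ctnna3 (ENSMUSG00000060843, chromosome 10, 63430098 to 65003667, plus strand), the form of heart and testis that also binds Pkp2, had 15.4, 19.0, 16.0 and 20.3 FPKM in knockout libraries, 20.1, 17.6 and 17.0 FPKM in TAC libraries, and 32.1, 22.0 and 19.0 FPKM in control libraries. The groups overlapped, and control replicate 1 stood above the rest. The log2 fold changes were -0.42 in knockout (95% interval -0.77 to -0.06, limma, adjusted p = 0.0927) and -0.37 in TAC (-0.75 to 0.01, adjusted p = 0.177), each against control. Without control replicate 3 the knockout difference was -0.57 (adjusted p = 0.0372).

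Tjp1 (ENSMUSG00000030516, chromosome 7, 65296165 to 65371239, minus strand), whose product borders gap junction plaques in the heart, had 11.5, 12.7, 12.4 and 13.2 FPKM in knockout libraries, 14.6, 9.40 and 10.2 FPKM in TAC libraries, and 12.2, 9.35 and 11.9 FPKM in control libraries. All 3 groups overlapped. Its log2 fold changes against control were 0.16 in knockout (95% interval -0.15 to 0.47, limma, adjusted p = 0.48) and 0.02 in TAC (-0.32 to 0.35, adjusted p = 0.961).

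In the comparison of TAC with control, which describes the same genes under pressure overload, Pkp2 and Dsp rose and none of the 10 genes fell. The count of 2 of 10 compares with 15.5% of all tested genes, 8.08% higher and 7.37% lower. It was 1 with scaling factors from all genes above 0, which were fitted first. The groups did not overlap for 5 of the 10 genes, against 31.6% of all tested genes, and 4 of these 5 were higher in TAC (Dsp, Pkp2, Jup and Cdh2), against 16% of all tested genes. The median log2 fold change was 0.00 over the 10 genes and -0.00 over all tested genes. Knockout and TAC are set against the same 3 control libraries, so that their values are not independent.

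Knockout and TAC were also compared with each other. None of the 10 genes was called by limma (4 had an unadjusted p under 0.05, as had 18% of all tested genes), against 3.28% called of all tested genes. These 4 genes were those whose groups did not overlap, against 18.1% of all tested genes. Ctnnb1 was higher in knockout than in TAC with a log2 fold change of 0.30 (95% interval 0.11 to 0.49, adjusted p = 0.0833), Dsc2 was lower with -0.31 (-0.52 to -0.10, adjusted p = 0.102), Pkp2 with -0.26 (-0.47 to -0.05, adjusted p = 0.169) and Dsp with -0.29 (-0.54 to -0.04, adjusted p = 0.213). With quantile normalization the Ctnnb1 difference was 0.40 (adjusted p = 0.0273). Without it, a difference of Ctnnb1 between knockout and TAC was not shown.

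**Figure D2:**
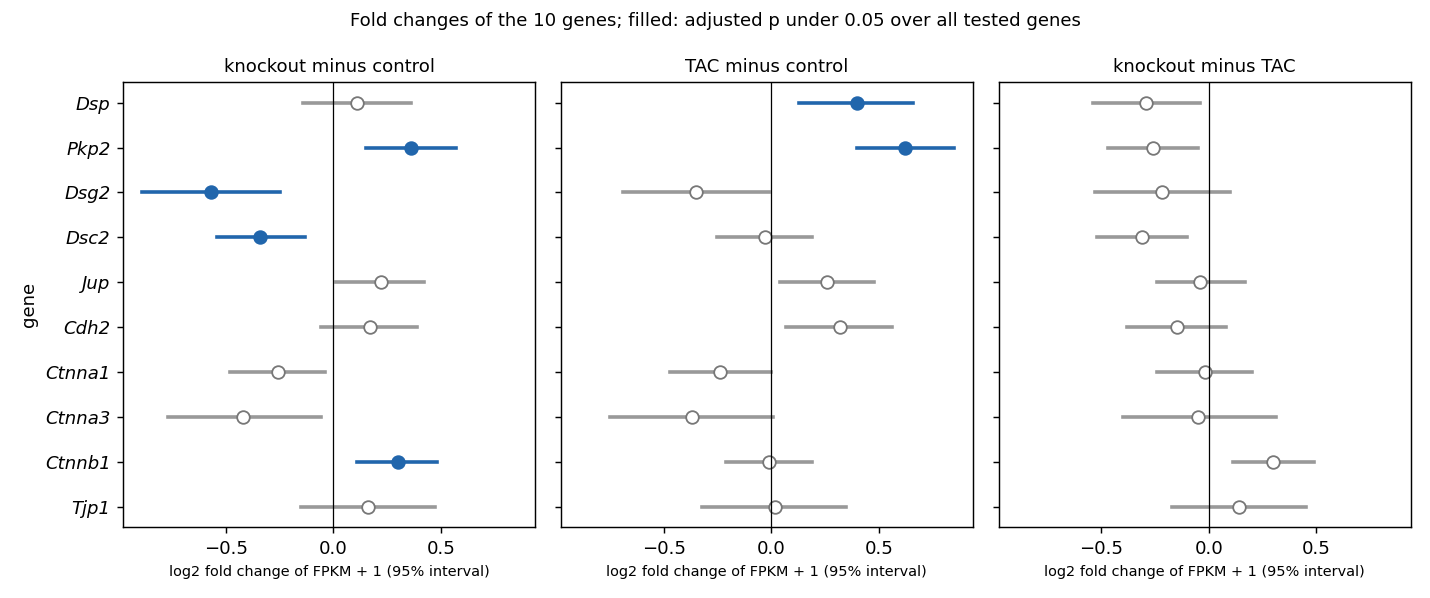
Log2 fold change of FPKM + 1 (horizontal axis) with its 95% interval for each gene in knockout minus control, TAC minus control and knockout minus TAC; filled points have an adjusted p under 0.05 over all tested genes. Pkp2, Ctnnb1, Dsg2 and Dsc2 are filled in the left panel, Dsp and Pkp2 in the middle panel, and no gene in the right panel.

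Within each sex the 6 called differences kept their signs, and limma restricted to the females lost the 4 knockout calls, with adjusted p from 0.0584 to 0.126. The female TAC arm is 1 library, so that its fit says little about the TAC calls. In 3 female knockout against 2 female control libraries the log2 difference was 0.40 for Pkp2, 0.32 for Ctnnb1, -0.61 for Dsg2 and -0.34 for Dsc2. In the 1 male knockout against the 1 male control library it was 0.26, 0.24, -0.45 and -0.35 for the same genes. In TAC against control it was 0.75 for Pkp2 and 0.40 for Dsp among females (1 against 2 libraries), and 0.51 and 0.46 among males (2 against 1).

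Related members were compared as shares of their summed FPKM. Plakoglobin made up 37.0, 39.6, 38.9 and 37.6% of plakoglobin plus beta-catenin in knockout libraries, 44.4, 41.2 and 46.7% in TAC libraries, and 40.0, 39.3 and 39.5% in control libraries. Every TAC library lay above every other library. The mean share was 38.3 ± 1.19% in knockout (SD, n = 4), 44.1 ± 2.73% in TAC (SD, n = 3) and 39.6 ± 0.381% in control libraries (SD, n = 3). The difference of -5.81 percentage points between knockout and TAC had a two-sided exact permutation p of 0.0286, the smallest that 4 against 3 libraries allow, and an adjusted p of 0.257 over 9 such comparisons. The difference of 4.52 points between TAC and control had an exact permutation p of 0.1, also the smallest its 3 against 3 libraries allow (adjusted p = 0.36). AlphaT-catenin was 13.8 ± 2.09% of both alpha-catenins in knockout (SD, n = 4), 14.0 ± 1.66% in TAC (SD, n = 3) and 15.7 ± 5.08% in control libraries (SD, n = 3). Dsg2 was 58.3 ± 3.36% of the desmosomal cadherins in knockout, 56.5 ± 2.64% in TAC and 62.1 ± 3.52% in control libraries. These sums include Dsg2-203, a short transcript with 47.1% of the Dsg2 level. They also include Dsc2-203, annotated as a target of nonsense-mediated decay, with 38.4% of the Dsc2 level. The groups of these shares overlapped or missed the adjusted threshold in the exact permutation tests (adjusted p from 0.36 to 0.943). The 5 desmosomal genes (Dsp, Pkp2, Dsg2, Dsc2 and Jup) made up 52.0 ± 1.73% of the summed level of the 10 genes in knockout, 56.9 ± 0.579% in TAC and 49.8 ± 0.744% in control libraries, given as a description with no test. Dsp was the largest part of the 5, with means of 238 FPKM in TAC and 180 FPKM in control libraries. The means of Pkp2 and Jup were also higher in TAC than in control, that of Dsg2 was lower (15.7 against 20.6 FPKM), and that of Dsc2 was 12.1 against 12.3 FPKM.

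**Figure D3:**
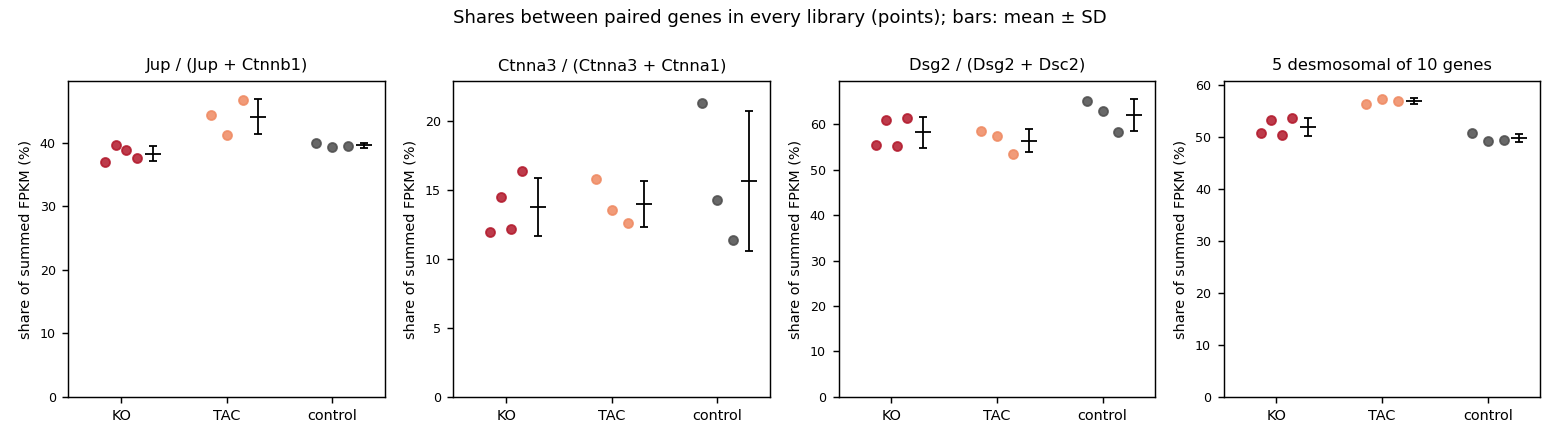
Share of summed FPKM in percent (vertical axis, from 0) of plakoglobin, alphaT-catenin, desmoglein 2 and the 5 desmosomal genes in every knockout (KO), TAC and control library; points are libraries and bars the mean ± SD. The desmosomal share, of which Dsp is the largest part, is 56.3 to 57.4% in TAC libraries, above the 50.3 to 53.7% of knockout and 49.3 to 50.7% of control libraries.

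The files list 49 transcripts of the 10 genes, of which 25 reached the mean level for testing. Cufflinks divides reads among overlapping transcripts by estimation, so that these levels carry an error of their own beyond the spread between libraries. In knockout against control, Pkp2-201 and Jup-201 rose and Dsc2-202 and Dsg2-201 fell, 4 of 25 against 14.6% of all 17685 tested transcripts (7.12% higher and 7.53% lower). In TAC against control, Pkp2-201, Jup-201, Dsp-201, Cdh2-202 and Dsc2-203 rose and Dsp-203 fell, 6 of 25 against 10.1% of all (5.66% higher and 4.43% lower). In knockout against TAC none was called by limma (6 had an unadjusted p under 0.05, against 14.6% of all), against 0.956% called of all. Jup-201, which held 79.1% of the gene level, had 48.8, 47.3, 49.1 and 46.5 FPKM in knockout, 45.2, 46.7 and 51.7 FPKM in TAC, and 36.4, 39.2 and 38.5 FPKM in control libraries, a log2 fold change of 0.33 in knockout (limma, adjusted p = 0.0245) and 0.32 in TAC (adjusted p = 0.0423). This main coding transcript passed the test where the gene sum did not.

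The transcripts of Dsc2 differed in direction. Dsc2-201 and Dsc2-202 code for the b and a forms of desmocollin 2, which differ by a 46-nt exon (chromosome 18, 20032490 to 20032535) that Dsc2-202 lacks. Dsc2-203 is annotated as a target of nonsense-mediated decay, carries a 35-nt exon (20048783 to 20048817) absent from the other 2, and ends in a shorter last exon of 925 nt, against 1771 nt. Dsc2-202 had 2.15, 2.05, 2.2 and 3.98 FPKM in knockout libraries, 3.05, 3.07 and 3.08 FPKM in TAC libraries, and 5.15, 6.20 and 4.83 FPKM in control libraries. All knockout and TAC libraries lay below all controls, with log2 fold changes of -0.86 (limma, adjusted p = 0.00999) and -0.65 (adjusted p = 0.052). Dsc2-203 had 4.98, 4.42, 5.06 and 3.78 FPKM in knockout libraries, 5.54, 4.54 and 6.29 FPKM in TAC libraries, and 2.18, 4.16 and 1.79 FPKM in control libraries. Its log2 fold change was 0.63 in knockout (limma, adjusted p = 0.0645) and 0.84 in TAC (adjusted p = 0.0358), each against control. The coding transcripts together lay between 3.89 and 5.25 FPKM in knockout, between 5.35 and 7.44 FPKM in TAC, and between 7.23 and 10.8 FPKM in control libraries, a sum chosen after its values were seen. Dsc2-203 made up 47.8 ± 5.48% of the gene level in knockout (SD, n = 4), 45.3 ± 7.26% in TAC (SD, n = 3) and 22.3 ± 11.5% in control libraries (SD, n = 3), where control replicate 2 stood at 35.6% and the other two at 16.0 and 15.4%. Half-widths of the 95% intervals that Cufflinks lists had medians of 13.6 to 14.8% of the level for these 3 transcripts. Dsc2-201 varied from 0.742 to 3.21 FPKM in knockout, from 2.30 to 4.37 FPKM in TAC and from 1.03 to 5.67 FPKM in control libraries, and was not called.

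The other genes with several abundant transcripts are given as descriptions. Tjp1-202 carries a 240-nt exon (chromosome 7, 65314093 to 65314332) that Tjp1-201 lacks, the alpha region of ZO-1. Tjp1-202 made up 30.4, 31.7, 31.2 and 37.5% of both in knockout, 34.4, 41.3 and 40.8% in TAC, and 43.9, 41.7 and 44.2% in control libraries, so that every knockout and TAC library lay below every control library. Cdh2-202, which begins at a first exon of its own (chromosome 18, 16669958 to 16670069), made up 58.2 ± 1.01% of Cdh2-201 plus Cdh2-202 in knockout (SD, n = 4), 57.5 ± 2.86% in TAC (SD, n = 3) and 53.1 ± 1.38% in control libraries (SD, n = 3). The log2 fold change of Cdh2-202 was 0.44 in TAC (limma, adjusted p = 0.0425) and 0.30 in knockout (adjusted p = 0.0975), each against control. Dsp-201 and Dsp-202, the long and short rod forms DPI and DPII, share an exon that is 2295 nt long in Dsp-201 and 498 nt in Dsp-202. The short form made up 9.80 ± 0.853% of both in knockout (SD, n = 4), 10.9 ± 4.02% in TAC (SD, n = 3) and 12.7 ± 3.89% in control libraries (SD, n = 3), and the groups overlapped. Dsp-201 itself rose in TAC by a log2 fold change of 0.49 (limma, adjusted p = 0.0398). Dsg2-201 fell in knockout by 0.61 on the log2 scale (adjusted p = 0.0473), and the shorter Dsg2-203, of 7 exons, had -0.46 (adjusted p = 0.062). Dsg2-203 is 953 nt long against 5766 nt and held 47.1% of the gene level, with a median Cufflinks half-width of 20.8% of its level. Dsp-203, a non-coding transcript of 4 exons, was at or below 0.0056 FPKM in TAC, from 0.000863 to 6.42 FPKM in knockout and from 2.30 to 16.0 FPKM in control libraries, with a wide Cufflinks interval whose median half-width was 62.3% of the level.

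**Figure D4:**
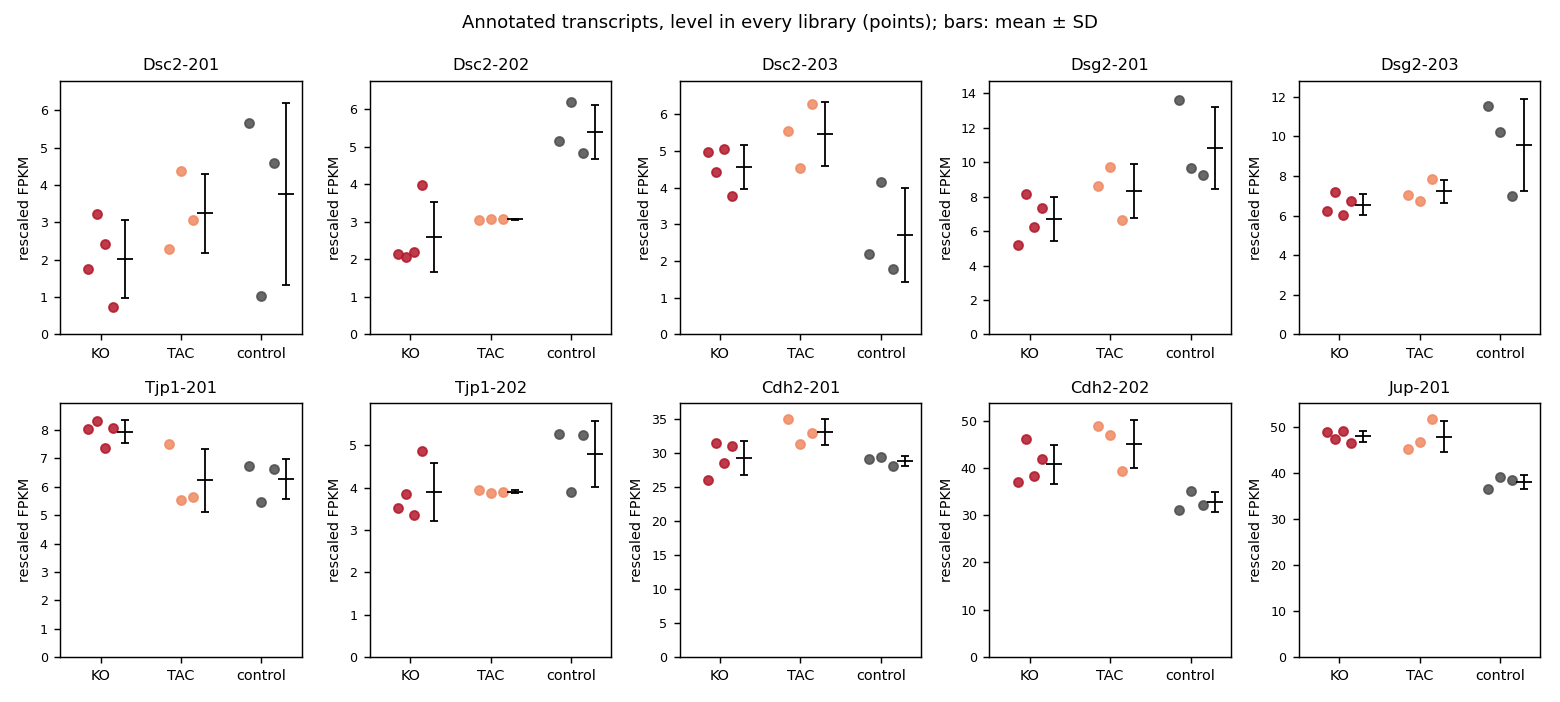
Level in rescaled FPKM (vertical axis, from 0) of 10 annotated transcripts of Dsc2, Dsg2, Tjp1, Cdh2 and Jup in every knockout (KO), TAC and control library; points are libraries and bars the mean ± SD. Dsc2-202 is lower and Jup-201 higher in every knockout and TAC library than in every control library.

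Ctnna3 and Ctnnb1 each have transcripts that begin at different places, and the 250 bases before the start are shown for Ctnna3-203, Ctnna3-202 and Ctnnb1-201. RefSeq promoter windows (build GRCm38.p6) matched 5 of the 10 genes. Ctnna3-203 begins at the first base after chr10:63429848-63430097, and Ctnna3-202 begins at the last base of chr10:63457261-63457510, both on the plus strand. The window of Ctnnb1-201 is chr9:120933150-120933399 on the plus strand. Capitals mark every CG dinucleotide.
Ctnna3-203: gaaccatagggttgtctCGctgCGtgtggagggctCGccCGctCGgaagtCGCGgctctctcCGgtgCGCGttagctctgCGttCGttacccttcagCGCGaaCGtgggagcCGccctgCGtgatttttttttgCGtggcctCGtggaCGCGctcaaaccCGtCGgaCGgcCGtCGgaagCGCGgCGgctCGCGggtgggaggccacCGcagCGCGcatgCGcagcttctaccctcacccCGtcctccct
Ctnna3-202: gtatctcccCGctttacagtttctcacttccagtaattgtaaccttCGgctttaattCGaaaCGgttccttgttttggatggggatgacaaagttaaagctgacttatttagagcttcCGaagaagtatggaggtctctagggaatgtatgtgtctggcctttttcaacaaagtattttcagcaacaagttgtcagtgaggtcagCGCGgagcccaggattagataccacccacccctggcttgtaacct
Ctnnb1-201: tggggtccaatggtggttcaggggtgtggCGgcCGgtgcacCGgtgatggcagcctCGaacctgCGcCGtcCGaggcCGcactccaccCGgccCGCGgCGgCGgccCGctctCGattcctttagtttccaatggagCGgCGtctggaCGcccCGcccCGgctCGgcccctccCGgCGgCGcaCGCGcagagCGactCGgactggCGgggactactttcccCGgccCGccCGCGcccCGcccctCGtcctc
These windows hold 36, 7 and 35 CG dinucleotides, which lies above 97.4, 53.7 and 97.0% of 32817 windows of the same length in the table, whose median is 6.0. Their base composition was 67.6, 44.8 and 74.8% G or C. The transcript of the CG-rich start of Ctnna3 was low: Ctnna3-203 lay between 0.000166 and 1.17 FPKM in knockout, between 0.144 and 2.26 FPKM in TAC, and between 0.000341 and 0.863 FPKM in control libraries. Ctnna3-202 lay between 8.97 and 12.9 FPKM in knockout, between 13.0 and 13.3 FPKM in TAC, and between 12.6 and 20.8 FPKM in control libraries, and held 67.3% of the gene level. Ctnnb1-201 had 56.2, 40.2, 62.8 and 54.1 FPKM in knockout, 40.5, 41.6 and 35.8 FPKM in TAC, and 32.2, 44.6 and 34.3 FPKM in control libraries, a log2 fold change in knockout against control of 0.51 (limma, adjusted p = 0.0608). Ctnnb1-214, which begins downstream at 120933578, averaged 29.8 ± 8.01 FPKM in knockout (SD, n = 4), 30.6 ± 2.92 FPKM in TAC (SD, n = 3) and 33.7 ± 6.01 FPKM in control libraries (SD, n = 3), with -0.20 (adjusted p = 0.589). Neither transcript was called where the gene sum was. The first exon of Ctnnb1-214 (39 nt, 120933578 to 120933616) lies within that of Ctnnb1-201 (120933400 to 120933638). How reads divide between these 2 transcripts is therefore uncertain.

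The same windows were searched on both strands for 4 short words known from promoters, with overlapping matches counted. The MCAT word bound by TEAD factors (GGAATG) was found 1 time before Ctnna3-202, and 12.6% of all windows held it. The GC box of Sp1 (GGGCGG), which 32.7% of all windows held, was found 3 times before Ctnnb1-201 and 1 time before Ctnna3-203. The CCAAT box (CCAAT), held by 33.8% of all windows, was found 2 times before Ctnnb1-201. The GATA word (AGATAA, 9.99% of all windows) was not found in these 3 stretches. A match is a description of the letters and not a binding site.

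The other genes of the junction were counted by list. Of 11 other desmosome genes, all listed, 2 reached the level for testing (Pkp4 and Perp), and none was called by limma in knockout or TAC against control (1 in each had an unadjusted p under 0.05). Pkp4 had 40.5, 51.9, 48.4 and 44.7 FPKM in knockout, 35.7, 39.8 and 36.4 FPKM in TAC, and 35.9, 30.9 and 43.4 FPKM in control libraries. Among 16 tested catenin family members and cadherin adaptors, 5 rose and 1 fell in knockout, and 4 rose and 1 fell in TAC, each against control. Of all tested genes, 20.8% were called in knockout (10.6% higher) and 15.5% in TAC (8.08% higher). Enah, an actin regulator of the Ena/VASP family, averaged 60.4 FPKM in knockout, 113 FPKM in TAC and 36.0 FPKM in control libraries, with log2 fold changes of 0.72 in knockout (limma, adjusted p = 0.00163) and 1.62 in TAC (adjusted p = 2.7e-05), and it was lower in knockout than in TAC (-0.90, adjusted p = 0.00344). Arvcf, a p120-type catenin, averaged 8.31 FPKM in knockout, 7.51 FPKM in TAC and 4.08 FPKM in control libraries (log2 fold change 0.87 in knockout, limma, adjusted p = 0.000332, and 0.74 in TAC, adjusted p = 0.00188). Ctnnal1, an alpha-catenin-like protein, was the member that fell in both comparisons, at 5.25 FPKM in knockout, 6.70 FPKM in TAC and 11.2 FPKM in control libraries (-0.96 in knockout, adjusted p = 0.000355, and -0.66 in TAC, adjusted p = 0.0066).

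Of 25 tested partners of the area composita, 9 rose and 2 fell in knockout and 12 rose and 1 fell in TAC, with median log2 fold changes of 0.26 and 0.51 against -0.01 and -0.00 over all tested genes. These counts of 25 compare with 20.8% and 15.5% of all tested genes called. Xirp2, an actin-binding protein of the disc, averaged 211 FPKM in knockout, 435 FPKM in TAC and 95.7 FPKM in control libraries (log2 fold change 1.13 in knockout, limma, adjusted p = 0.000314, and 2.16 in TAC, adjusted p = 1.3e-05). Nrap, which ties actin to the disc membrane, averaged 269 FPKM in knockout, 356 FPKM in TAC and 147 FPKM in control libraries (0.86 in knockout, adjusted p = 0.000586, and 1.25 in TAC, adjusted p = 0.000155). Tmem65, a membrane protein of the disc, fell in both, at 27.8 FPKM in knockout, 29.3 FPKM in TAC and 54.5 FPKM in control libraries (-0.94 in knockout, adjusted p = 0.000207, and -0.87 in TAC, adjusted p = 0.000735). Between knockout and TAC 5 of the 25 were called, among them Gjc1 (connexin 45), higher in knockout, and Xirp2 and Bves (a membrane protein of the Popeye family), lower in knockout, against 3.28% of all tested genes.

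Lists around ZO-1 and beta-catenin were counted in the same way. Of 12 tested tight junction genes, 3 rose and 2 fell (Jam2 and Cldn12) in knockout, while none rose and 2 fell (Jam2 and Cldn12) in TAC. Of 26 tested genes of the Wnt core, 2 rose and 1 fell in each comparison with control, a smaller share than the 20.8% in knockout and 15.5% in TAC of all tested genes called. Fzd1 and Fzd2, Wnt receptors, rose in knockout by log2 fold changes of 0.45 (limma, adjusted p = 0.0101) and 0.77 (adjusted p = 0.00506), and Pygo1, a co-factor of beta-catenin, fell (-0.76, adjusted p = 0.00312). In TAC against control Fzd1 also rose (0.45, limma, adjusted p = 0.0169), as did the Wnt co-receptor Lrp5 (0.62, adjusted p = 0.00277), Pygo1 fell (-0.53, adjusted p = 0.0346), and Fzd2 had 0.46 (adjusted p = 0.0816). The list of Wnt target genes also holds secreted Wnt modulators, among them Dkk3, Wif1 and Sfrp1, so its counts are not a measure of beta-catenin activity. Of its 7 tested genes, 2 rose (Ccnd1 and Dkk3), 1 fell (Wif1) and 4 were not called in knockout. In TAC also 2 rose (Sfrp1 and Ccnd1) and 1 fell (Wif1). Ccnd1 (cyclin D1) averaged 10.3 FPKM in knockout, 6.73 FPKM in TAC and 4.25 FPKM in control libraries (1.12 in knockout, limma, adjusted p = 0.000223, and 0.57 in TAC, adjusted p = 0.0184). Axin2, a widely used Wnt target, had 1.38, 2.44, 2.35 and 1.70 FPKM in knockout, 1.04, 0.982 and 1.06 FPKM in TAC, and 1.73, 0.863 and 1.14 FPKM in control libraries and was not called. Of 18 tested Hippo pathway genes and targets, 5 rose in knockout and 4 rose and 1 fell in TAC, and Ankrd1 and Amot were among those that rose in both. Of 6 tested cadherins 2 rose in knockout (Fat1 and Dchs1) and 1 in TAC (Dchs1). Of 3 plakins and cytolinkers none was called by limma in knockout or TAC against control (0 and 1 had an unadjusted p under 0.05).

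**Figure D5:**
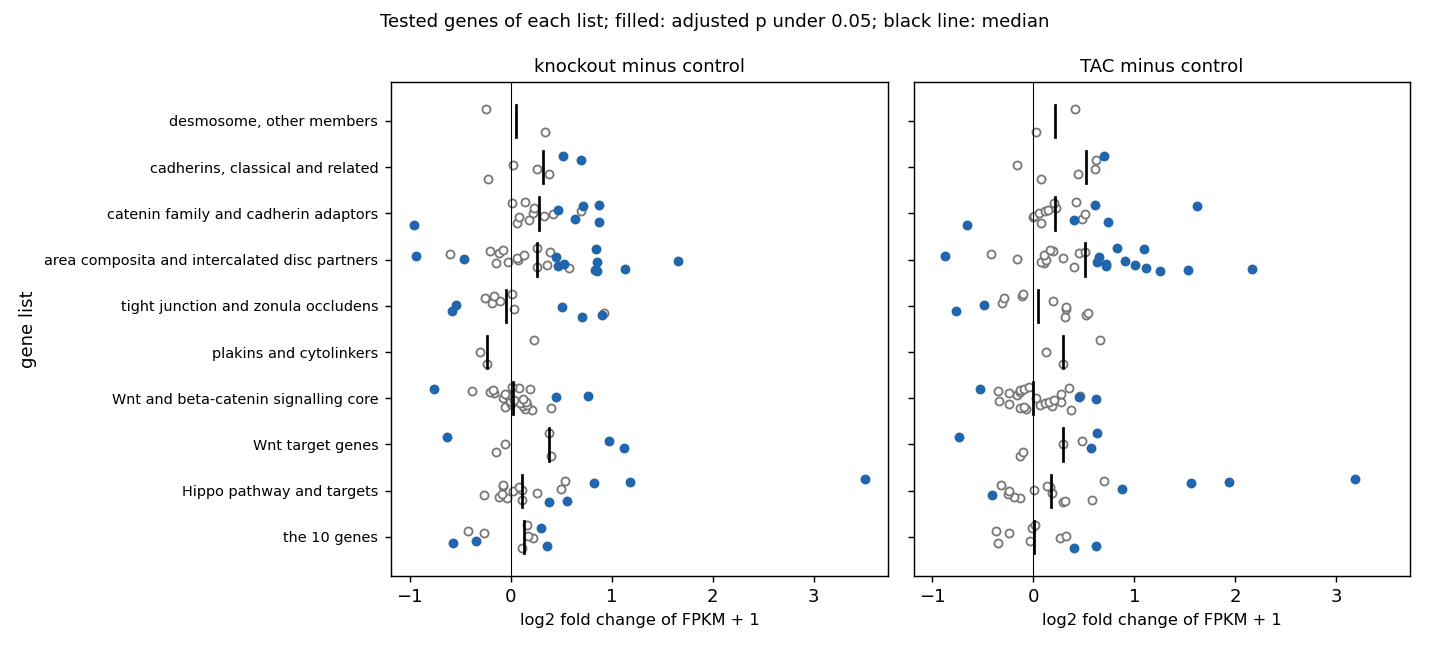
Log2 fold change of FPKM + 1 (horizontal axis) of the tested genes of each list and of the 10 genes described here, in knockout minus control and TAC minus control; filled points have an adjusted p under 0.05 and black lines are medians. Area composita partners have medians of 0.26 in knockout and 0.51 in TAC, and the 10 genes of 0.13 and 0.00.

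Some markers of other cells differed between the groups, but the summed ranges of these lists overlapped between knockout and control. Between TAC and control, the leukocyte sums and the smooth muscle and pericyte sums did not overlap. Ctnnb1, Ctnna1, Jup and Tjp1 are known to be expressed by such cells too. Summed fibroblast markers (12 genes) ranged from 262 to 402 FPKM in knockout, from 289 to 357 FPKM in TAC and from 153 to 294 FPKM in control libraries. Of 11 tested, 6 rose in knockout and 5 in TAC, against 10.6% and 8.08% of all tested genes. Summed endothelial markers (14 genes) ranged from 181 to 297 FPKM in knockout, from 246 to 287 FPKM in TAC and from 183 to 248 FPKM in control libraries. Of these 14, 3 rose in knockout, against 10.6% of all tested genes. None of these endothelial markers was called by limma in TAC, where 7 had an unadjusted p under 0.05, against 6 in knockout. Their median log2 fold change was 0.23 in knockout and 0.40 in TAC. Leukocyte markers (12 genes) ranged from 85.9 to 139 FPKM in knockout, from 120 to 138 FPKM in TAC and from 77.1 to 104 FPKM in control libraries. Markers of epicardium and epithelia, whose cells hold many desmosomes, summed to between 8.69 and 15.4 FPKM in knockout, 5.14 and 22.0 FPKM in TAC, and 7.13 and 10.5 FPKM in control libraries, with Krt5 listed at 0 throughout. Erythroid markers (5 genes) summed to between 130 and 632 FPKM in knockout, 951 and 1680 FPKM in TAC, and 288 and 1200 FPKM in control libraries. Of these 5, 3 were called lower in knockout than in TAC, against 3.28% of all tested genes called in either direction. Their median log2 fold change was -2.31. Smooth muscle and pericyte markers (10 genes) summed to between 608 and 731 FPKM in knockout, 817 and 1320 FPKM in TAC, and 484 and 639 FPKM in control libraries. Most of each sum was Des (desmin), which is also on the list of area composita partners. Des lay between 540 and 664 FPKM in knockout, 747 and 1250 FPKM in TAC, and 403 and 554 FPKM in control libraries. The median log2 fold change of the tested markers of this list was 0.12 in knockout and 0.0 in TAC. Of the 9 tested, Cspg4 rose and Acta2 fell in knockout, and Cspg4 and Des rose and Acta2 fell in TAC. Of all tested genes, 10.6% rose and 10.2% fell in knockout, and 8.08% rose and 7.37% fell in TAC. The log2 fold change of Acta2 was -1.39 in knockout (limma, adjusted p = 0.000667) and -1.05 in TAC (adjusted p = 0.0073), each against control. Alb, a liver marker, lay between 0 and 0.0219 FPKM in knockout, between 0 and 0.0516 FPKM in TAC and between 3.49 and 4.15 FPKM in control libraries. Of the 14 myocyte markers, 1 rose and 5 fell in knockout, against 10.6% and 10.2% of all tested genes. In TAC 1 of them rose and 3 fell, against 8.08% and 7.37% of all tested genes. The part of these shifts in the results was not tested, and in such bulk samples fewer cells of a type and less RNA per cell cannot be told apart.

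Genes that lie near the 10 were listed as a check on position. Within 100 kb of Pkp2, the 2 tested neighbours fell in knockout, against 10.2% of all tested genes. Dnm1l, of mitochondrial fission, had a log2 fold change of -0.30 (limma, adjusted p = 0.0331), and Yars2, a mitochondrial tRNA synthetase, of -0.36 (adjusted p = 0.0348). Of the 7 neighbours of Jup none was called by limma in knockout (0 at an unadjusted p under 0.05), and Fkbp10 and P3h4 fell in TAC (-0.53, adjusted p = 0.0255, and -0.96, adjusted p = 0.00498). Sirt1, 1 of the 2 tested neighbours of Ctnna3, fell in TAC (-0.57, adjusted p = 0.0126). In TAC 7.37% of all tested genes were called lower. None of the neighbours of Dsp, Dsg2, Ctnna1 and Ctnnb1 was called by limma in knockout or TAC against control, and 1, near Dsg2 in knockout, had an unadjusted p under 0.05. Of all tested genes, 20.8% were called in knockout and 15.5% in TAC, in either direction.

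For each gene, the tested gene with the most similar pattern was found as the smallest root mean square difference of centred log2 levels over the 10 libraries. These were Cpd for Dsp (0.0826), Hspa1l for Pkp2 (0.0465), Zfp654 for Dsg2 (0.0742), Cox10 for Dsc2 (0.0691), Gm5113 for Jup (0.0482), Clint1 for Cdh2 (0.0534), Pex2 for Ctnna1 (0.0317), BC005561 for Ctnna3 (0.0714), Ccdc181 for Ctnnb1 (0.0608) and Pcdhgc3 for Tjp1 (0.0704). Among the 10 themselves, the closest pair was Dsp and Cdh2 (0.0997), followed by Dsg2 and Ctnna3 (0.114). These distances are descriptions over all libraries and include the differences between the groups.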

How the data were processed

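Stranded paired-end RNA-seq libraries of isolated myocytes were deposited as 1 transcript file per mouse. Per the labels the molecule was polyA RNA, but their protocol gives Ribo-Zero depletion, so the selection of RNA is uncertain. The FPKM values, corrected for the length of the transcript and the size of the library, were made by the authors with Cufflinks. The deposited files also hold a Cufflinks score that ranks isoforms within a gene, which stayed unused. Bowtie2, TopHat2 2.1.0, Cuffdiff, Cufflinks 2.2.1 and the build mm10 are named in the submitters' processing notes. Per the labels each library had its own mouse number.

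FPKM was summed by gene ID. Symbols came from GENCODE annotation of GRCm38, which held 44952 of 45882 IDs. Set apart were 22 IDs listed at 0 in some libraries but with a median of at least 100 FPKM in the others. IDs whose longest transcript was under 300 nt were left out. Libraries were rescaled by medians of ratios over genes with a mean of at least 1 FPKM (factors 0.912 to 1.10), and 11358 genes with a rescaled mean of at least 1 were tested as log2(FPKM + 1) in 1 limma model of all 10 libraries (limma 3.58.1, R 4.3.3, variance trend), two-sided, with Benjamini-Hochberg adjustment over all genes. The 17685 tested transcripts were fitted alike. "Rose" and "fell" are used at an adjusted p under 0.05. Shares of 2 genes were compared by exact permutation. The test was checked on simulated data. Counts are not listed, so depth is unknown and counting error could not be given.

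The 10 genes, the lists and the scaling were chosen with earlier results of these data known. Named were all 10 genes, up to 4 called genes per list by adjusted p, the nearest patterns, neighbours within 100 kb, and transcripts with at least 10% of the gene level or called. Pkp4, Axin2 and the members needed for small counts were named after their values were seen. Some list genes are not reported here. Same-numbered libraries were not treated as pairs. Their deviations correlated between -0.359 and 0.327, and those of libraries with different numbers between -0.345 and 0.462. Such values cannot exclude a batch shared by libraries of the same number. Per comparison 25 alternatives were fitted, of which the restriction to females was added after seeing the data. Scaling factors from all genes above 0 were fitted first. After the calls from that fit were seen, the set was changed to genes with a mean of at least 1, as in earlier processing of these data. The first factors were then kept as an alternative, with which 2 of the 10 genes were called in knockout and 1 in TAC, each against control.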

Additional observations from a re-analysis of the deposited data

Results flagged for a closer look

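Among 43 groups of 4 libraries or more tested for a library far from the others (Dixon's ratio at the 95% level, which chance passes in about 1 of 20 groups), 2 stood out. Ctnnb1 in knockout replicate 1 was 103 FPKM, against 91.2, 91.8 and 92.6 FPKM in the other knockout libraries. Dsc2-202 in knockout replicate 4 was 3.98 FPKM, against 2.15, 2.05 and 2.2 FPKM in the other knockout libraries. Without knockout replicate 1 the log2 fold change of Ctnnb1 against control was 0.25 (limma, adjusted p = 0.0896).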

How the results depend on the processing

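The number of the 10 genes called in knockout against control was 4 as reported. It was 2 with the replicate numbers as a replicate block, 0 with females only, 2 with factors from all genes above 0, and between 1 and 4 when single libraries were left out. In TAC against control it was 2 as reported and 1 with a pseudocount of 5, no filter on the mean, short genes kept, only the compared groups, the replicate block, sex as a covariate, robust moderation or factors from all genes above 0. It was 5 with the most abundant transcript, 0 with females only (1 TAC library, assumed to vary like the other groups), and between 1 and 2 with single libraries left out. In knockout against TAC it was 0, and 1 with quantile normalization. Called transcripts in knockout numbered 4 as reported, 1 with no filter, 2 with factors from all genes above 0, and between 1 and 4 with single libraries left out. In TAC they numbered 6, 2 with no filter, 3 with the replicate block, 3 with sex as a covariate, and between 1 and 5 with single libraries left out. In knockout against control the block removed the calls of Dsc2 (-0.31, limma, adjusted p = 0.103) and Ctnnb1 (0.31, adjusted p = 0.0723). Whether the replicate numbers mark a shared batch is not known.

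Of 750 log2 fold changes under alternatives, 30 in 7 results changed sign, and 1 of these 7 was called as reported: Dsc2 in knockout was 0.63 with its most abundant transcript, Dsc2-203. Dsc2 in TAC against control was 0.032 as deposited, 0.84 with that transcript, and from -0.064 to 0.041 with single libraries left out. Ctnnb1 in TAC was 0.057 as deposited, 0.094 with the most abundant transcript, 0.029 in females, and from -0.032 to 0.0079 with single libraries left out. Tjp1 in TAC was -0.014 with the most abundant transcript, -0.32 in females, and from -0.16 to 0.13 with single libraries left out. Between knockout and TAC, Jup was 0.026 as deposited, 0.049 with quantiles, 0.003 with the most abundant transcript, 0.12 in females, and from -0.11 to 0.036 with single libraries left out. Ctnna1 was 0.044 as deposited, 0.079 with quantiles, 0.0107 with the replicate block, 0.013 in females, and from -0.056 to 0.0134 with single libraries left out. Ctnna3 was 0.0154 as deposited, 0.0025 with quantiles, and from -0.11 to 0.022 with single libraries left out.

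With the most abundant transcript, the plakoglobin share differed between knockout and control by -3.27 points, the Dsg2 share by -20.6 points in knockout and -19.8 points in TAC, and the desmosomal share by 4.23 and 9.22 points, each against control. This Dsg2 share sets Dsg2-201 against Dsc2-203, the transcript annotated as a target of nonsense-mediated decay, and not against the coding transcripts of Dsc2. The cause of the changed shares was not tested, beyond the use of fewer transcripts. Over all genes, 2362 calls in knockout became 1487 with a mean of at least 5 and 1187 in females, and 1755 in TAC became 1167, 245 in females and 1153 in the compared groups alone. The 372 between knockout and TAC became 195 with no filter, 200 with the block, 233 with sex, 8 in females, 148 and 133 without knockout replicate 1 or 3, and 157, 136 and 188 without TAC replicate 1, 2 or 3. Leaving out libraries makes groups of 2, and unknown depth limits the low transcripts.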
